A study of Mus musculus with 4 samples.

Results

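Thymocytes that had switched on a null allele of Foxp3 were compared with thymocytes that had not switched on Foxp3. The first RNA came from GFP+ CD4+ CD8- thymocytes of Foxp3(gfpko/wt) females, which are heterozygous for a GFP reporter allele without functional Foxp3 (written Foxp3-null GFP+ here). The second came from GFP- CD25- CD4+ CD8- thymocytes of Foxp3(gfp/gfp) females, homozygous for a knock-in that fuses GFP to Foxp3 and leaves the factor in place. These are 2 of the 4 arrays of the series. The other 2, GFP- CD25+ and GFP+ CD4+ CD8- thymocytes of Foxp3(gfp/gfp) females (the latter written Foxp3-fusion GFP+), are used only to place values. All probe sets with 1 gene symbol were taken, 34945 of 45101, and they stood for 18193 genes.

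All cells came from female mice aged 6 to 8 weeks and were sorted before RNA extraction and 2 rounds of amplification. The Foxp3(gfp/gfp) mice had been backcrossed 4 to 6 generations from 129/Sv to C57BL/6, and the Foxp3(gfpko/wt) mice only 2. Each group was 1 array, so nothing here has a replicate, an error or a test, and how many animals stood behind an array was not given. Foxp3 state, residual 129/Sv genome, the set of mice and the array cannot be told apart in any difference below. The free text of the Foxp3-null sample was copied from that of the Foxp3(gfp/gfp) samples. Its title and its own strain entry therefore decide its group. Its title names no CD25 gate, whereas the comparison cells were gated as CD25-.

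Foxp3 is a forkhead transcription factor encoded on the X chromosome and is the lineage factor of regulatory T cells. These cells arise in the thymus from CD4 single-positive thymocytes with strong T cell receptor, CD28 and IL-2 signals, and they are known for high CD25, CTLA-4, GITR and OX40. A female carries 1 active X chromosome per cell. A GFP+ cell of a Foxp3(gfpko/wt) mouse therefore uses the null allele, and it develops beside cells that use the wild-type allele and can become regulatory T cells.

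Signals are log2 values after quantile normalization over the 4 arrays, which gives every array the same distribution. A detection floor of 4.09 was set from 63 probe sets of genes silent in this tissue (their 90th percentile on the array where it was highest), and a gene was called measured when at least 1 of the 2 arrays reached it. Where 1 of the 2 arrays was under the floor, the fold is a minimum and is given as "at least". A gene is called higher or lower only where it differed by at least 2-fold the same way on the quantile scale and on the scale as deposited. Both are asked for because the choice of scale moves the balance. The median difference over all measured genes was 0.19 on the quantile scale and 0.00 on the deposited scale, and 59.0% of 2-fold genes were higher on the former against 32.0% on the latter.

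CD4 lineage genes were present on both arrays, though not all at like levels. The T cell receptor chain gene Cd3e was at 10.06 and 10.18 in GFP- CD25- and Foxp3-null GFP+ cells. Cd4 was at 9.23 and 9.37, with another probe set differing by -1.14. Cd3d and Cd2 were 2.25-fold and 2.14-fold higher on the quantile scale only, and Cd28 was 5.27-fold lower (10.41 against 8.01). Cd8a, the gene sorted against, was near the floor at 4.71 and 4.70, with another probe set differing by -1.40, and Cd8b1 was under the floor on both. Of 11 B cell markers 3 were measured. Ms4a1 (CD20) was at 4.51 and 5.63, 2.18-fold higher on the quantile scale only, Cd72 at 4.39 and 5.81, and H2-Aa at 6.68 and 6.49, whereas Cd79a, Pax5 and Cd22 were under the floor on both arrays. Of 17 dendritic cell and macrophage markers 6 were measured, while Itgax, Itgam, Lyz2 and Cd68 were under the floor on both. The summed linear signal over the whole B cell list was 196 in GFP- CD25- cells against 248, and over the myeloid list 3067 against 4057. Most of the myeloid sum on both arrays came from 1 gene, Ctss, at 11.46 and 11.85 (1.31-fold). Ctss was bright on the other arrays too, at 11.20 and 12.48, and the part of myeloid cells in this sum was not tested. Myeloid Csf1r and Cst3 were higher, under the floor in GFP- CD25- cells (3.79 and 3.44) and at 5.50 and 5.78 in Foxp3-null cells. The macrophage gene Adgre1 was at 4.22 and 5.21, or 1.99-fold, Mpeg1 at 6.60 and 6.99, and Zbtb46 at 4.52 and 4.49. At like dim levels, the Y-linked gene Uty, on arrays of female mice, was at 4.80 and 5.84. Natural killer and NKT markers were mixed, with 3 of 11 measured and a summed signal of 251 against 152. Zbtb16 (PLZF, the factor of NKT cells) was lower, at 6.39 against 2.79, and Klrd1 likewise, at 6.32 against 3.55. Both were under the floor on the other arrays of the series too. But Nkg7, a cytotoxic granule gene, was 2.46-fold higher, at 4.95 against 6.25. Amplification bias differed too. The gap between the 3' and 5' control probe sets of Actb was 8.39 for GFP- CD25- RNA against 6.99 for Foxp3-null RNA, and that of Gapdh 6.45 against 4.92. The part of these shifts in the differences below was not tested.

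Foxp3 itself was under the floor on both GFP- arrays, at 2.76 in GFP- CD25- cells and 2.88 in GFP- CD25+ cells. It was at 7.27 in Foxp3-null GFP+ cells and 8.83 in Foxp3-fusion GFP+ cells. The sort on GFP selects for GFP+ arrays above GFP- arrays, so that difference checks the labels and is no finding. The sort does not fix the gap between the GFP+ arrays, whose cause was not tested. Whether the probe set lies in sequence that the null allele keeps is not known here. Il2ra, which encodes the CD25 used in the sort, was likewise at least 32.3-fold higher, at 3.62, 7.85, 9.10 and 10.36 in the same order of arrays. Its second probe set was under the floor on both arrays compared.

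Across 8359 measured genes, 449 were higher in Foxp3-null GFP+ cells (5.37% of genes) and 620 were lower (7.42%). Counts in the gene lists below are to be read against these shares. On the quantile scale alone the counts were 900 (10.8%) and 626 (7.49%), and on the deposited scale alone 449 (5.43% of 8264) and 954 (11.5%). Most genes were alike, and 5167 (61.8%) lay within 1.5-fold. Differences of at least 4-fold on both scales were found for 93 higher and 139 lower genes, and of at least 8-fold for 24 and 33. Among genes whose brighter array was under 6, 2.89% were higher and 3.26% lower. Among genes at 10 or more, 5.27% were higher and 11.6% lower. The excess of lower genes depends on the rule of both scales. That rule dropped 451 genes that were higher on the quantile scale but only 6 that were lower. The split by brightness on the quantile scale alone was not tested. In bulk RNA like this, more cells of a kind and more RNA per cell cannot be told apart.

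**Figure D1:**
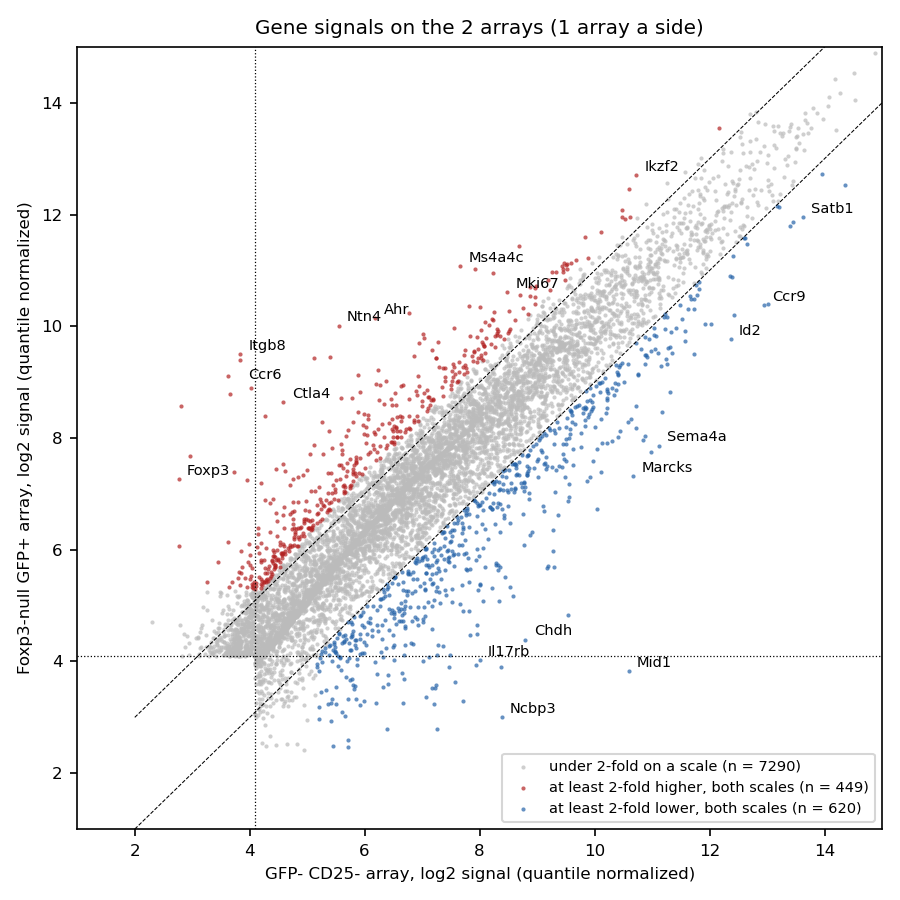
Log2 signal of each measured gene on the GFP- CD25- array (x axis) and the Foxp3-null GFP+ array (y axis), 1 point a gene, both quantile normalized. Dotted lines mark the floor and dashed lines 2-fold; the 449 red genes and the 620 blue genes differ by at least 2-fold on both scales, and genes such as Itgb8, Ccr6 and Mid1 lie far from the diagonal.

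The largest higher difference outside the sort genes was that of Itgb8, which encodes the integrin chain that activates latent TGF-beta. Its signal was 3.84 in GFP- CD25-, 8.71 in GFP- CD25+, 9.50 in Foxp3-null and 10.41 in Foxp3-fusion thymocytes, at least 42.3-fold for the comparison made here. Only the GFP- CD25- array was under the floor. The chemokine receptor gene Ccr6 followed at 3.83, 6.72, 9.39 and 10.19, at least 39.3-fold. Cd83, a stabiliser of surface MHC class II, was at 2.81, 5.87, 8.57 and 9.37, at least 22.4-fold. Rgs1, a brake on G protein signalling, was at 5.11, 8.89, 9.43 and 11.55, or 19.9-fold. Ctla4, the inhibitory receptor that competes with CD28 for its ligands, was at 4.58, 8.70, 8.65 and 12.09. Its level in Foxp3-null GFP+ cells was 16.8-fold that in GFP- CD25- cells and lay beside that of GFP- CD25+ cells, with Foxp3-fusion cells above both. Dusp4, a MAP kinase phosphatase, was at least 12-fold higher (2.96, 7.33, 7.67 and 9.04). Plagl1, a zinc finger gene, was 16.5-fold higher on its brightest probe set (5.40, 9.44, 9.45 and 10.89), but its other measured probe set differed by only 0.27.

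Another group of large differences peaked in the Foxp3-null cells rather than in the Foxp3-fusion cells. Pla2g4f, a cytosolic phospholipase A2, was at 4.02, 7.49, 8.89 and 6.56 in the same order, at least 27.9-fold higher. Ntn4, a secreted netrin, was at 5.55, 7.55, 10.01 and 8.64, or 22.1-fold. Ms4a4c, a tetraspan membrane protein gene, was at 7.66, 9.60, 11.08 and 8.90, or 10.7-fold, with a second probe set at 2.80 log2 higher. In these 3 genes the Foxp3-null array was the highest of the 4 by more than 1 log2 unit. Gsta4, a glutathione transferase, was at 3.65, 5.34, 8.79 and 8.49, at least 25.9-fold. Ptger2, a prostaglandin E2 receptor, was at 4.26, 7.89, 8.39 and 8.23, or 17.5-fold. Ahr, the ligand-activated aryl hydrocarbon receptor, was at 6.18, 8.44, 10.15 and 9.56, or 15.6-fold, and Notch2 at 6.78, 8.42, 10.23 and 9.41, or 11-fold. For these 4 genes the Foxp3-null array was highest by less than 1 log2 unit.

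Mid1 had the largest difference in either direction. It encodes a microtubule-associated ubiquitin ligase, and its signal was 10.59, 10.18, 3.83 and 9.59 on the arrays in the same order. Only the Foxp3-null array was under the floor, at least 90.4-fold below the GFP- CD25- array. It rests on 1 probe set, since the others were under the floor on both arrays compared. Ncbp3 (a cap-binding protein) was at 8.38, 7.12, 3.0 and 7.28, at least 19.6-fold lower, although its other measured probe set differed by 0.28 the opposite way. Tbc1d23 (a Golgi trafficking protein) was at 7.94, 7.02, 3.94 and 7.62, at least 14.4-fold lower. Usp8, an endosomal deubiquitinase, was at least 11.2-fold lower (7.58, 7.62, 3.63 and 6.70), and Inpp4b, a phosphoinositide phosphatase, 11.4-fold lower (9.18, 8.09, 5.67 and 8.18). Tnrc6b, a partner of Argonaute in microRNA silencing, was 9.97-fold lower (10.04, 9.93, 6.72 and 9.66), but its other probe sets differed by -0.15 and 0.10. Chdh, a choline dehydrogenase, was 21.2-fold lower (8.80, 7.64, 4.39 and 6.58). In these 7 genes the Foxp3-null array was at least 4-fold below every other array. Amn1 was at least 12.3-fold lower on its brightest probe set (7.71, 6.43, 3.29 and 7.54) and 0 of its 2 other measured probe sets went the same way. Atp7a, a copper pump, was 10.6-fold lower (8.58, 9.04, 5.17 and 7.18), and its other probe set differed by -0.45.

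Other large decreases ran in steps or were shared with the Foxp3-fusion array. Il17rb, the IL-25 receptor chain, was at 8.00, 5.77, 4.02 and 4.40, at least 15-fold lower in Foxp3-null GFP+ cells. Zbtb16 (6.39, 2.83, 2.79 and 2.66) and Klrd1 (6.32, 3.49, 3.55 and 3.38) differed the same way as Il17rb, whereas Nkg7 differed the opposite way. Zbtb16 and Klrd1 were above the floor only on the GFP- CD25- array, so their differences are not particular to Foxp3-null cells. Their part in the result was not tested. Phxr4 was at 9.29, 6.83, 5.68 and 5.45, or 12.2-fold lower, and Pxylp1, a phosphatase of proteoglycan synthesis, at 7.96, 4.52, 4.50 and 3.51, or 11-fold lower. Marcks, a membrane-bound actin regulator, was at 10.67, 10.55, 7.32 and 6.31, or 10.2-fold lower, with 4 of 4 other probe sets also lower and the weakest at -0.34. These 3 genes were no lower in the Foxp3-null cells than in the Foxp3-fusion cells. Rpf1, a ribosome assembly factor, was 11.2-fold lower (9.19, 8.89, 5.71 and 7.25) and the ubiquitin ligase Nedd4 at least 10.3-fold (7.46, 7.07, 3.90 and 5.06), both with Foxp3-fusion values between.

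**Figure D2:**
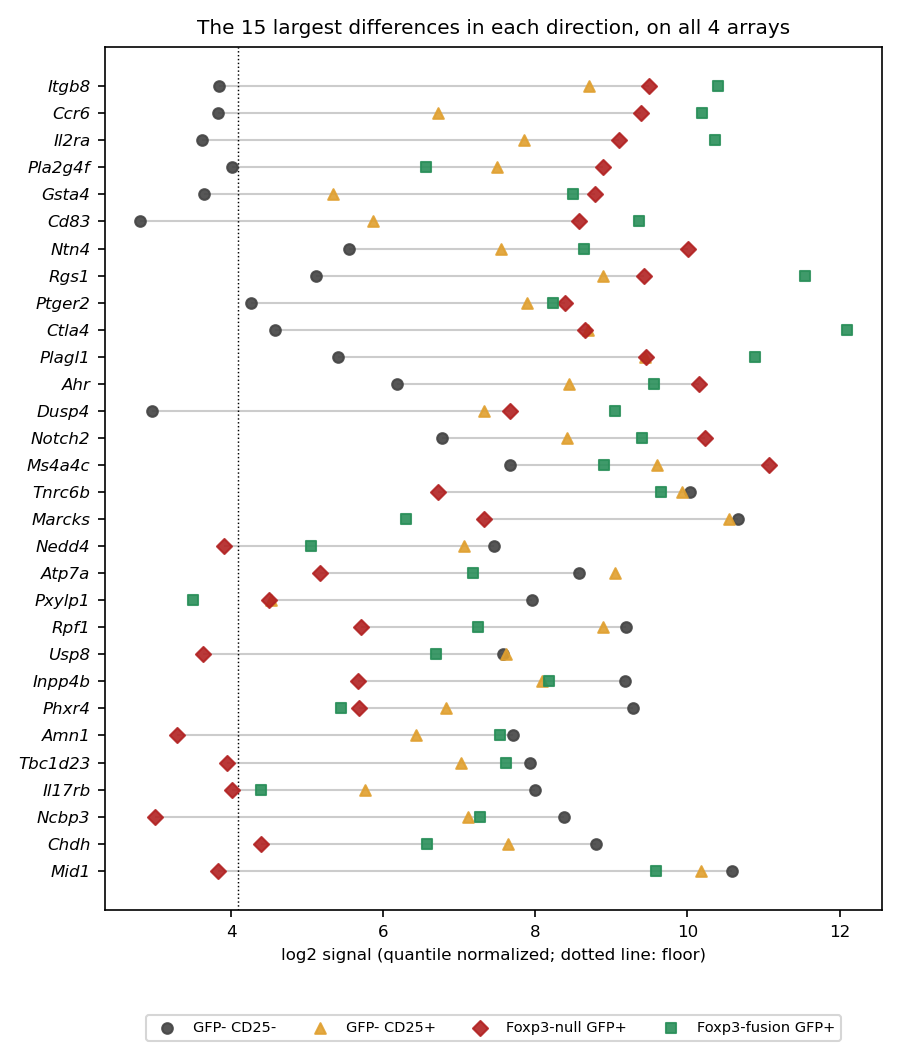
Log2 signal (x axis, quantile normalized) of the 15 genes with the largest higher and the 15 with the largest lower differences, on all 4 arrays, 1 symbol an array; the dotted line is the floor. GFP- CD25- and Foxp3-null GFP+ values are joined by a grey line. Itgb8 and Ccr6 were high in both GFP+ samples, whereas Mid1, Tbc1d23 and Usp8 were low in the Foxp3-null sample and well above the floor in the other 3.

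Genes known for high expression in regulatory T cells were mostly higher although the cells lacked functional Foxp3. Of 28 listed genes on the array, 24 were measured, 20 were higher and 1 was lower, with a median difference of 2.47 (2.12 on the deposited scale) against 0.19 over all genes. Foxp3 and Il2ra are counted among the 20. The TNF receptor genes Tnfrsf4 (OX40), Tnfrsf9 (4-1BB) and Tnfrsf18 (GITR) were 6.72-fold, 6.42-fold and 4.87-fold higher. Il2rb, the signalling chain of the IL-2 receptor, was at least 8.95-fold higher (3.95 against 7.25), and Penk, the enkephalin precursor, 6.93-fold (4.62 against 7.41). Ikzf4 and Ikzf2, which encode the Ikaros family factors Eos and Helios, were 6.11-fold and 3.95-fold higher. Ikzf2 was already bright in GFP- CD25- cells (10.72) and reached 12.70, beside 12.36 in GFP- CD25+ and 12.78 in Foxp3-fusion cells. Gpr83, an orphan receptor, was 5.02-fold higher, at 8.01 and 7.99 on the GFP- arrays and 10.34 and 10.88 on the GFP+ arrays, so it differed with GFP and not with the CD25 gate. Its probe sets differed by the same 2.33. Nrp1, neuropilin 1, was 3.67-fold higher, with 4 measured probe sets between 1.04 and 3.90.

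Several of these genes were well below their Foxp3-fusion level. Itgae (CD103) was at 6.77 in GFP- CD25-, 8.18 in Foxp3-null and 11.94 in Foxp3-fusion thymocytes. Socs2, a brake on cytokine receptor signalling, was at 4.44, 5.87 and 8.57, and Ctla4 at 4.58, 8.65 and 12.09. For each of these the Foxp3-null value was nearer to the GFP- CD25- value or close to midway. Icos, a costimulatory receptor of the CD28 family, was the listed gene that was lower, 2.20-fold (11.81 against 10.67). Entpd1, Ebi3, Il10 and Klrg1 were under the floor on both arrays.

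The set of genes that regulatory T cells express weakly was lower in part. Of 11 measured, 6 were lower and 0 higher, with a median of -1.68 (-1.89 as deposited). Taking the median over each gene's probe sets gave -0.99, and leaving out probe sets that can cross-hybridise -0.46. Sema4a, a semaphorin, was 9.54-fold lower, at 11.12, 7.87 and 5.85 in the same order of these 3 samples, although its second probe set differed by -0.46. Id2, an inhibitor of E proteins, was 6.03-fold lower (12.37 against 9.77), and Igfbp4, an insulin-like growth factor binding protein, 4.66-fold (11.73 against 9.51, all 4 probe sets lower). Bach2, a repressor of effector programmes, was 4.95-fold lower on its brightest probe set. Its level was 10.22 in GFP- CD25- cells and 7.92 in Foxp3-null cells, against 9.18 and 9.51 on the other arrays. Il7r, the IL-7 receptor chain, was 3.57-fold lower and Satb1, a genome organiser of thymocytes, 3.20-fold, each on all its measured probe sets, with Satb1 ranging from -3.99 to -1.36 over 5. The lymph node homing receptor gene Ccr7 was 2.15-fold higher on the quantile scale and under 2-fold as deposited, and Dapl1 likewise 2.29-fold. Pde3b differed little (10.79 against 11.06), although it was at 5.78 in Foxp3-fusion cells. Lef1 and Actn1 differed by -0.35 and -0.26, and another probe set of Actn1 by 2.08.

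**Figure D3:**
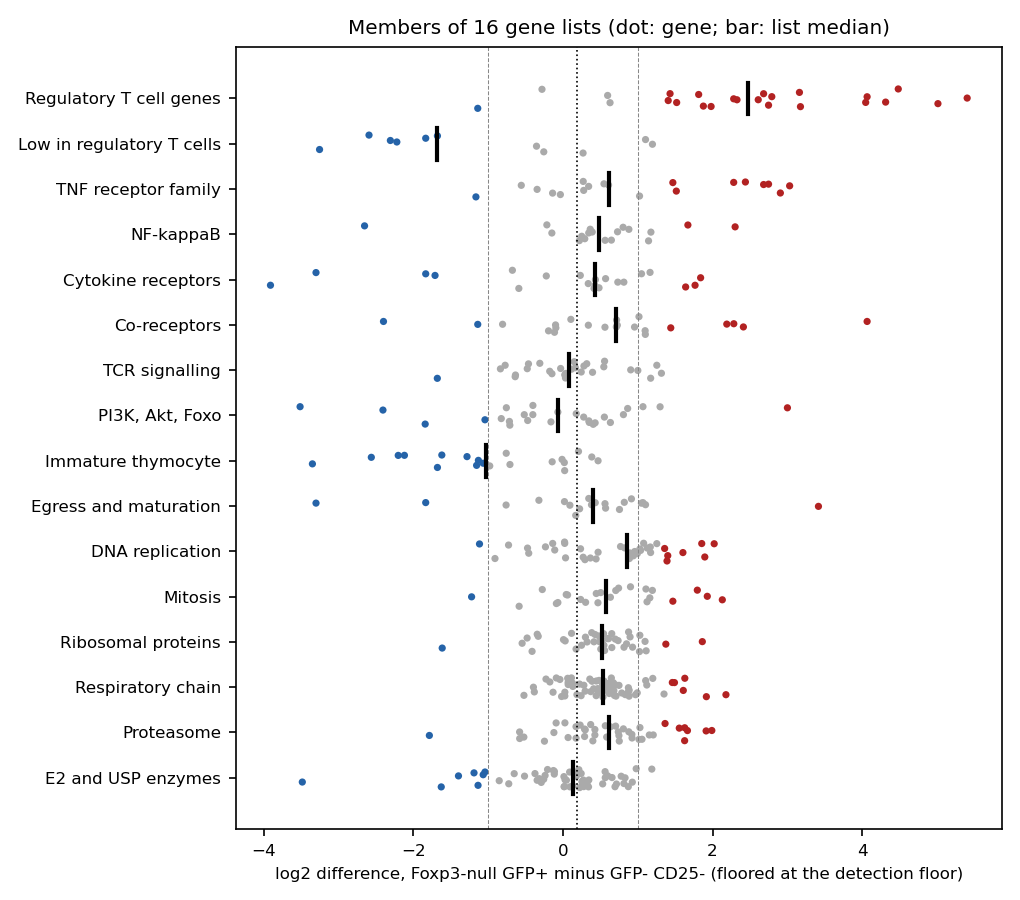
Log2 difference, Foxp3-null GFP+ minus GFP- CD25- (x axis), of each measured member of 16 gene lists (rows), with values under the floor set to the floor. Red and blue dots are genes at least 2-fold apart on both scales, grey dots the rest, black bars the list medians and the dotted line the median of all genes (0.19). Regulatory T cell genes lie far to the right (median 2.47), and immature thymocyte genes to the left (median -1.02).

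The TNF receptor family sends costimulatory signals into lymphocytes, largely through TRAF adaptors and NF-kappaB. Of 19 measured members, receptors, ligands and TRAFs together, 8 were higher and 1 lower, with a median of 0.61 (0.51 as deposited). Among the receptors, Tnfrsf25 (DR3) was 8.17-fold higher, at 5.25, 6.82, 8.28 and 7.77 on the 4 arrays in the order used above. Tnfrsf1b (TNFR2) was 7.50-fold higher, at 5.92, 8.20, 8.83 and 9.55. Fas, the death receptor, was 2.77-fold higher (5.17 against 6.64). Among the ligands, Lta (lymphotoxin alpha) was 5.42-fold higher and highest in Foxp3-null cells (4.99, 6.03, 7.43 and 6.38). Ltb, its membrane partner, was 2.86-fold higher (9.45 against 10.96). Tnfsf11, which encodes RANKL, was 2.24-fold lower (8.46 against 7.30). All 6 higher receptors, Tnfrsf4, Tnfrsf9 and Tnfrsf18 included, were within 1 log2 unit of their Foxp3-fusion signal.

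In the NF-kappaB pathway 2 of 18 measured genes were higher and 1 lower, beside 5.37% and 7.42% of all measured genes. For so short a list these counts lie near those shares. The median was 0.48 (0.27 as deposited). Nfkb2, the p100 precursor of the noncanonical pathway, was 4.93-fold higher, at 5.59, 6.20, 7.89 and 5.36, so that the Foxp3-null array was above all others by 1.69. Its second probe set gave 2.09 beside 2.30. Tnip1, an inhibitor that works with A20, was 3.18-fold higher (8.05 against 9.72), and the A20 gene Tnfaip3 was 2.21-fold higher on the quantile scale only. Malt1, a paracaspase upstream of NF-kappaB, was 6.28-fold lower on its brightest probe set, but its other measured probe sets reached 0.32. Rel and Map3k14 were under the floor.

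Promoter sequence is shown for Nfkb2 and Tnfrsf9 because these genes of the pathway were higher and carry matches to NF-kappaB letters in the 250 bases before an annotated start. The sequences are RefSeq, build GRCm38.p6, with the matches in capitals. The letters searched, on both strands, were GGGAA or GGGGA, then any 3 bases, then CC. In Nfkb2 there were 3 matches, the first pair overlapping, and in Tnfrsf9 2 overlapping matches. Other annotated starts of both genes had no match to these letters. Neither had Lta and Ltb, also higher and searched the same way. The near form GGGACTTTCC is not among the letters searched. It stands before another annotated start of Nfkb2 and, on the opposite strand, before Ltb, so no match is not absence of a site.
Nfkb2, chr19:46304487-46304736, plus strand: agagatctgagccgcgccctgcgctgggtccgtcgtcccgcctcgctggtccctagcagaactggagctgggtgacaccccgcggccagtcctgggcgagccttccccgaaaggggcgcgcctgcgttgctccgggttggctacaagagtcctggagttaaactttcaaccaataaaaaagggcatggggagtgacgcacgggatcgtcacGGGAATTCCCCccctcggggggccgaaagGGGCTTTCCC
Tnfrsf9, chr4:150927749-150927998, plus strand: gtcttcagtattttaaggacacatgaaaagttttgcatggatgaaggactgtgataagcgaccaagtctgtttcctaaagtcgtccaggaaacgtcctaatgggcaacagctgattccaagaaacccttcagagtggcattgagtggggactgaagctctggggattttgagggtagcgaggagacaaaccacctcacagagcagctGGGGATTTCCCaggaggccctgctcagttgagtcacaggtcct
Such matches were found in 9.13% of 32851 promoters of this length, in 32.0% of 25 promoters of the NF-kappaB list and in 24.1% of 29 promoters of the TNF receptor list. They were in 14.6% of promoters of the higher genes and 12% of promoters of the lower genes, beside 10.6% of promoters of all measured genes. A match is a description of letters only.

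IL-2 binds a receptor of CD25, CD122 and the common gamma chain and signals through STAT5. Of 11 measured genes on this list, 4 were higher and 2 lower, with a median of 0.48 (0.10 as deposited). Cish, a STAT5-induced inhibitor, was 8.00-fold higher, at 4.45, 6.77, 7.45 and 7.48. It joined Il2ra, Il2rb and Socs2, while Pim1, another STAT5 target, was 2.34-fold higher on the quantile scale only and lay between the GFP- CD25- and Foxp3-fusion levels (5.16, 6.39 and 9.14). Stat5b was 2.06-fold lower. Bcl2, the survival factor, was 3.02-fold lower on its brightest probe set (13.46 against 11.86), but its 5 probe sets ranged from -1.70 to 1.03.

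Other cytokine receptor genes were mixed, with 3 of 21 measured higher, 4 lower and a median of 0.43 (0.09 as deposited). Over all measured genes the shares were 5.37% and 7.42%. The TGF-beta superfamily receptors Tgfbr1 and Bmpr2 were 3.40-fold and 3.58-fold higher, whereas the coreceptor gene Tgfbr3 was 3.27-fold lower. Il1r2, the IL-1 decoy receptor, was 3.12-fold higher. Ifngr2, the second chain of the interferon gamma receptor, was 9.85-fold lower, at 7.96, 8.35, 4.66 and 6.96. Il7r and Il17rb completed the lower genes. Among 28 measured interferon-stimulated genes, 4 were higher and 1 lower, beside the same shares of all genes. Their median was 0.44 (0.13 as deposited). Ifit1 was 3.61-fold higher (8.71 against 10.56) and Iigp1, an interferon-induced GTPase, 2.41-fold lower.

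Co-receptors of T cells set the threshold of the receptor signal. Of 22 measured, 5 were higher and 2 lower, with a median of 0.72 (0.38 as deposited). Pdcd1 (PD-1) was 4.87-fold higher, at 6.53, 6.81, 8.81 and 7.78. Cd200, ligand of an inhibitory receptor, was 5.32-fold higher (7.56, 9.49, 9.97 and 9.32), and Cd96, a nectin-family receptor, 4.56-fold (7.23, 7.60, 9.42 and 8.61). These 3 were highest in Foxp3-null cells. Cd28 was 5.27-fold lower on its brightest probe set, at 10.41, 9.08, 8.01 and 9.90, and its other probe set also was lower by more than 2-fold (-1.23).

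Genes that T cell receptor signals induce showed no common direction, with 3 of 19 measured higher, 2 lower and a median of -0.11 (-0.43 as deposited). Among all measured genes 5.37% were higher and 7.42% lower. Nr4a3, an orphan nuclear receptor, was 5.85-fold higher, at 7.82, 9.68, 10.36 and 9.97, and Batf, an AP-1 factor, 3.71-fold (4.97, 5.08, 6.87 and 6.76). Nab2, a corepressor of the Egr factors, was 7.50-fold lower (8.22 against 5.31). The receptor complex and its proximal signalling genes differed little, with 0 of 28 higher and 1 lower, Cblb, whose probe sets ran from -1.68 to 1.85. Spred2, an inhibitor of the Ras pathway, was 8.77-fold lower with all 3 measured probe sets at -1.17 or below. Rgs16, of the same family as Rgs1, was 7.20-fold higher on its brightest probe set, by 3.08 log2 on its other, and highest in GFP- CD25+ cells (7.01, 10.57, 9.86 and 8.88).

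In the PI3K, Akt and Foxo pathway, 1 of 27 measured genes was higher and 4 were lower, beside 5.37% and 7.42% of all measured genes. The median was -0.07 (-0.30 as deposited). Besides Inpp4b, Sgk1, a kinase downstream of PI3K, was 5.30-fold lower, at 8.10, 4.53, 5.69 and 5.90. Pdpk1, the kinase that activates Akt, was 3.58-fold lower (9.46, 9.27, 7.62 and 9.22) and low only in Foxp3-null cells. Pik3r3 was 2.06-fold lower. Prr5l, a partner of mTORC2, was 8.00-fold higher and highest in Foxp3-null cells (4.19, 6.03, 7.19 and 4.19).

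Transcription factors of T helper lineages split evenly, with 3 of 22 measured higher (Ahr, Batf and Eomes) and 3 lower (Id2, Bach2 and Runx3) and a median of -0.02 (-0.22 as deposited). The shares over all measured genes were 5.37% and 7.42%. Runx3, a factor of CD8 and type 1 cells, was at 5.50 in GFP- CD25- cells and under the floor in Foxp3-null cells, at least 2.66-fold lower. Eomes was 2.49-fold higher (4.74 against 6.06).

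Genes of immature thymocytes were lower. Of 20 measured, 10 were lower and 0 higher, with a median of -1.02 (-1.35 as deposited). With the median over each gene's probe sets it was -0.29. Ccr9, the receptor that holds thymocytes near thymic epithelium, was 5.90-fold lower, at 12.94, 10.85, 10.38 and 8.81, with all 4 probe sets lower. Enc1, an actin-binding protein, was 4.34-fold lower (9.63, 7.76, 7.51 and 5.53), and Ets2 4.60-fold (6.51, 4.22, 4.30 and 6.31). Tox, a regulator of CD4 lineage development, was 2.43-fold lower, and Tcf12, which encodes the E protein HEB, 2.19-fold. Dntt, the terminal transferase of immature cells, was 2.23-fold lower. It was far higher in GFP- CD25+ cells than elsewhere (5.32, 8.37, 4.16 and 3.54). Rag1 and Ptcra were under the floor on both arrays. The list's second probe sets were weaker for Enc1 (-0.29), Ets2 (-0.10) and Tox (-0.06).

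Genes of thymic egress and late maturation did not share a direction, with 1 of 20 measured higher (Ms4a4c) and 2 lower (Ifngr2 and Il7r). Over all measured genes the shares were 5.37% and 7.42%. The list's median was 0.41 (0.02 as deposited). Among 12 measured chemokine receptors and ligands, Ccr6 and Ccr2 were higher and Ccr9 and Cxcr3 lower. Ccr2 was 2.93-fold higher, at 5.83, 6.37, 7.38 and 5.66, though its other probe set differed by 0.19. Cxcr3 was 2.14-fold lower. Of 19 measured integrin and adhesion genes, Itgb8, Itgae and Alcam were higher and Fermt3 and Cd47 lower, the last on 1 probe set of 4 with another at 1.42.

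Guidance receptors and ligands, known from axon growth and also used by lymphocytes, included 4 higher genes and 1 lower gene of 12 measured, with a median of 0.67 (0.46 as deposited). Nrp2, a class 3 semaphorin receptor, was at 3.73, 4.39, 7.40 and 4.41, at least 9.88-fold higher, with 3 of 3 measured probe sets between 1.84 and 3.30. It was the gene furthest above all other arrays in the Foxp3-null sample, by 2.99. Ntn4, Nrp1 and Cd72 were the other higher members. Cd72 is also a B cell gene, at 4.39 against 5.81, beside Cd79a and Pax5 under the floor on both arrays. Among 7 measured genes of prostanoid and lipid mediators, Pla2g4f and Ptger2 were higher and 0 lower. Of 16 measured glutathione and redox genes, Gsta4 was higher and 0 lower, and the list's median was 0.69 (0.42 as deposited). A single higher gene in so short a list lies near the 5.37% of all measured genes.

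Cell cycle genes leaned higher. Of 38 measured genes of DNA replication, 7 were higher and 1 lower, with a median of 0.86 (0.49 as deposited), and of 24 measured genes of mitosis 4 were higher and 1 lower, with a median of 0.57 (0.27). On the quantile scale alone 14 replication genes and 8 mitosis genes were higher. Mki67, the proliferation marker, was 4.38-fold higher, at 8.48, 9.62, 10.61 and 9.12. Pcna, the sliding clamp of DNA polymerase, was 3.62-fold higher (7.40, 7.29, 9.26 and 8.50). Both were highest in Foxp3-null cells. Top2a, topoisomerase II, was 3.81-fold higher (6.24, 6.53, 8.17 and 6.28), but its other measured probe set differed by 0.15. Cdca8, a subunit of the chromosomal passenger complex, was 3.47-fold higher (6.61, 7.58, 8.40 and 7.07), with its other probe set at 0.91. Hmmr was 2.77-fold (4.60, 4.97, 6.06 and 4.40) and Mcm10 2.64-fold higher (4.54, 4.88, 5.94 and 4.33). The Y-linked gene Uty, on arrays of female mice, ran alike at 4.80, 5.12, 5.84 and 4.33. Uty was 2.07-fold higher on the quantile scale only, with another probe set at -0.11. What such signal adds to dim genes was not tested. Mcm5 and Rrm1 were above 3-fold on their brightest probe sets, with others at -0.06 and -0.02. Many genes of mitosis, among them Cdk1, Plk1, Aurka and Bub1, were under the floor on both arrays.

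Promoters of Top2a and Cdca8 are shown because both mitosis genes were higher and hold several CCAAT boxes, letters that are frequent before genes of this phase. The CCAAT letters on either strand are in capitals, 6 in Top2a and 3 in Cdca8, within 250 bases before the annotated start (RefSeq, GRCm38.p6, printed along the gene's strand).
Top2a, chr11:99024190-99024439, minus strand: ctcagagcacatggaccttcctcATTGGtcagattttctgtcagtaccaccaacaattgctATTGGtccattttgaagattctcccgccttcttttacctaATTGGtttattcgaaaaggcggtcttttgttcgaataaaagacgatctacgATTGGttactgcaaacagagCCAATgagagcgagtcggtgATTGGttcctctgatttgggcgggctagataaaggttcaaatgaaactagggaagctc
Cdca8, chr4:124936918-124937167, minus strand: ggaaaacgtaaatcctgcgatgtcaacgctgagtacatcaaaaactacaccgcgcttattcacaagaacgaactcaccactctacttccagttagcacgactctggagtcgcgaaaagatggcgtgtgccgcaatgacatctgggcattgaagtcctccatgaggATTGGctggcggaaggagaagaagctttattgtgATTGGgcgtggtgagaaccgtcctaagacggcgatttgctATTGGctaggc
CCAAT was found in 82.1% of 39 promoters of the mitosis list, in 54.3% of 46 promoters of the replication list and in 33.8% of all 32851 promoters. These shares are over every promoter of a list, whether or not the gene differed. Letters of the cell cycle factor E2F were also searched before Ccne1, Pcna, Mcm3, Mcm5, Mcm10, Rrm1, Slbp and Mki67. The letters were TTTGGCGC, TTTCCCGC, TTTCGCGC and TTTGGCGG on either strand, found in 1.96% of all promoters. Only Mcm5 had matches. STAT letters, TTC, any 3 bases and GAA, were found in 7.02% of all promoters and had no match before Il2ra and Cish. Other forms of these sites and sequence outside the 250 bases were not searched, so no match is not absence of a site.

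Gene lists of metabolism and protein handling were mixed. Their counts stand beside 5.37% higher and 7.42% lower of all measured genes. Of 69 measured respiratory chain genes, 6 were higher and 0 lower, with a median of 0.54 (0.24 as deposited). Atp5b, the catalytic chain of ATP synthase, was 4.53-fold higher (6.94, 7.09, 9.11 and 10.02), and Uqcrh, of complex III, 3.78-fold with its other probe set at 2.18. Of 42 measured proteasome genes, 7 were higher and 1, Psmd9, lower, with a median of 0.61 (0.28 as deposited). Psmb7 was 3.97-fold and Psmd7 3.77-fold higher, and the activator gene Psme1 3.17-fold (8.87, 9.29, 10.54 and 10.14). Ribosomal protein genes had 2 higher and 1 lower of 41 measured, counts near or under the shares of all genes. Their median was 0.53 (0.20 as deposited). On either scale these medians were above the median of all genes. Genes of ubiquitin conjugation and removal had 0 higher and 7 lower of 57 measured, with a median of 0.13 (-0.12 as deposited). Usp38 (3.09-fold) and Usp37 (2.63-fold) were the largest lower differences after Usp8.

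The genes in which the Foxp3-null array stood furthest above the other 3 were led by Nrp2 and Lmo4, the latter a LIM-only transcription cofactor at 4.71, 4.70, 7.16 and 4.58. These were the 2 genes of 8720 (0.0229%) at least 4-fold above every other array. Lyz1 (a lysozyme, 4.46 against 6.65), Zfhx3 (a homeobox factor, 5.13 against 7.06), Car12 (a carbonic anhydrase, under the floor against 5.97), Mfsd13a, Aqp7 and Bace2 (an aspartyl protease) followed, with Nfkb2 and Dpysl2 (6.90 against 8.84). The myeloid genes Csf1r, under the floor against 5.50, and Lyz2, a second lysozyme gene under the floor on both arrays, are given beside Lyz1. Their part was not tested. At least 4-fold below every other array were 27 genes (0.31%). Besides Mid1, Ncbp3, Tnrc6b, Tbc1d23, Usp8, Inpp4b, Chdh, Amn1 and Atp7a, these included the RNA-binding protein gene Taf15 (8.01, 8.36, 5.38 and 8.15) and the chromatin remodeller subunit gene Smarcc2 (7.21, 7.12, 3.23 and 6.72). Setd7, a lysine methyltransferase, was at 6.68, 6.92, 3.26 and 6.95, and Slc35a3, a nucleotide sugar transporter, at 6.50, 6.92, 4.03 and 7.13, with a second probe set of Slc35a3 at -0.03.

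How far the other probe sets of a gene bore out its brightest one was checked for every called gene. Higher genes had 208 other measured probe sets, of which 161 (77.4%) lay above 0, 64 (30.8%) exceeded 2-fold the same way and 6 the opposite way. Lower genes had 612, of which 391 (63.9%) lay below 0, 146 (23.9%) exceeded 2-fold the same way and 16 the opposite way. Over all 5174 such probe sets, 55.2% lay above 0 and 44.7% below, 8.04% were at least 2-fold higher and 12.4% lower. Among 3197 genes with at least 2 measured probe sets, all were at least 2-fold higher in 59 genes and lower in 44. By mean difference the first were Ms4a4c, Syt11 (a synaptotagmin, 2.96 to 3.14), Rgs16, Mbnl3 (a splicing regulator, 1.85 to 4.02) and Pkp4 (a plakophilin, 2.60 to 2.76). Chchd10 (2.63 to 2.72), Prr5l, Nrp2, Ikzf4 and Lrig1 (2.10 to 2.67) came next. The first of the lower genes were Il7r, Satb1, Hectd2 (-3.21 to -1.46), Strn3 (-2.57 to -2.02) and Impact (-2.55 to -1.90). Tespa1, which couples the T cell receptor to calcium release, ranged from -2.92 to -1.35, and Ifi213, Mysm1 (a histone deubiquitinase), Npat (a histone gene coactivator) and Bach2 closed the list.

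**Figure D4:**
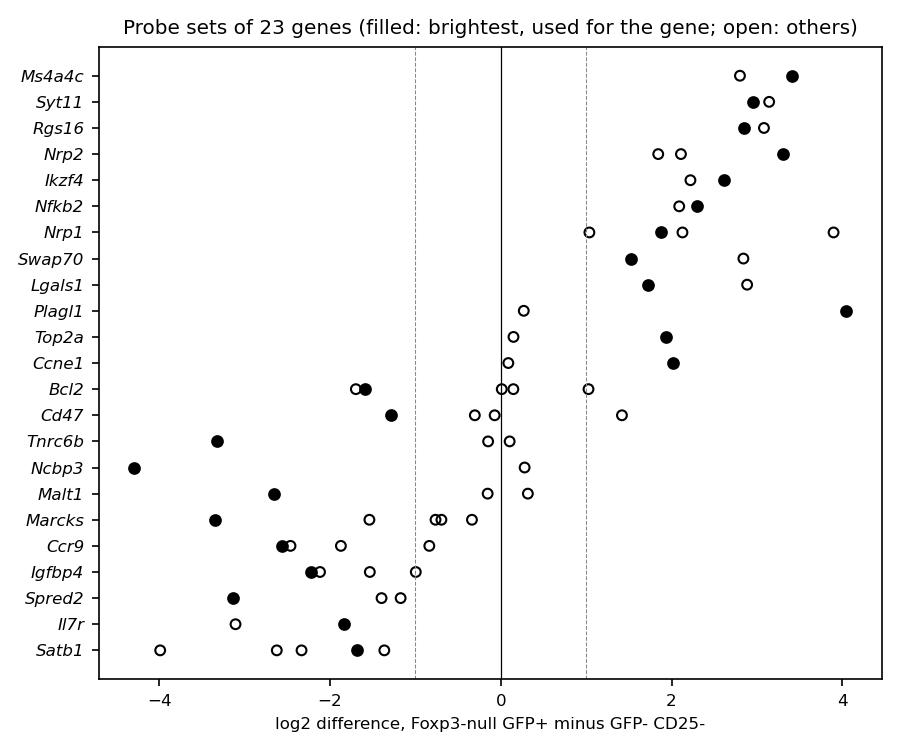
Log2 difference, Foxp3-null GFP+ minus GFP- CD25- (x axis), for every measured probe set of 23 genes (rows). Filled circles are the brightest probe set, used for the gene, and open circles the others; dashed lines mark 2-fold. Satb1, Nrp2 and Ikzf4 hold on all probe sets, while Plagl1, Ncbp3 and Tnrc6b rest on 1.

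On the X chromosome, which carries Foxp3, 10 of 275 measured genes were higher (3.64%) and 30 lower (10.9%), against 5.37% and 7.42% over all genes. Xist, the RNA of the inactive X, was lower on all its 3 probe sets, at 13.95 in GFP- CD25- cells and 12.73 in Foxp3-null cells, with 13.02 and 12.67 on the other arrays. Among the 40 nearest annotated neighbours of Foxp3, 15 were measured, 1 was higher and 1 lower, with a median of 0.17. The higher one was Plp2, a membrane proteolipid, at 6.24, 7.86, 9.22 and 8.93. The lower one was Ccdc22, which lies next to Foxp3 on the chromosome, at 8.28, 9.25, 7.23 and 5.70. Nnt, a gene that differs between mouse strains, was at 10.41 against 9.64, or 1.71-fold lower on the quantile scale and 2.12-fold lower as deposited, and its other measured probe set differed by 0.46 the opposite way.

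**Figure D5:**
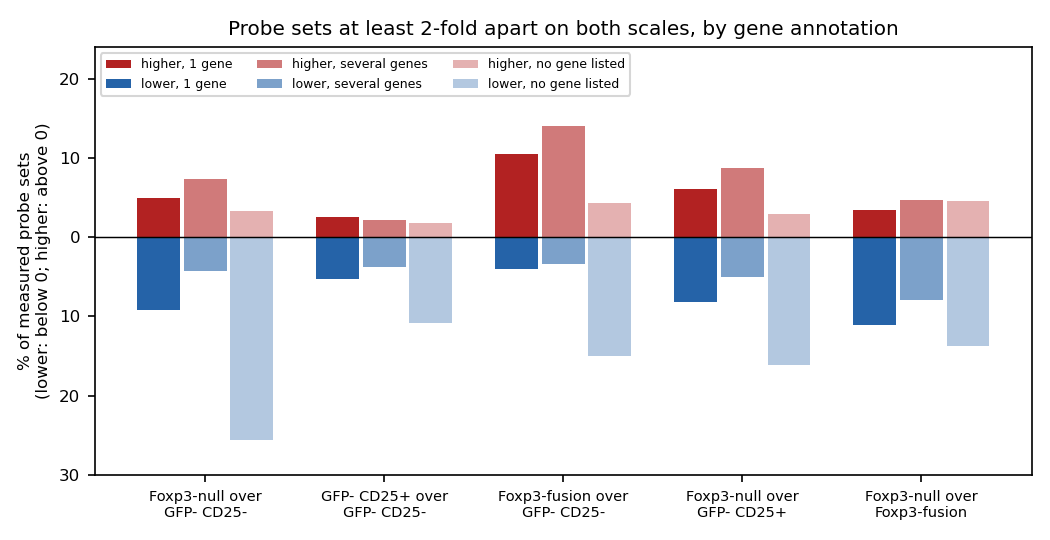
Share of measured probe sets at least 2-fold apart on both scales (y axis, percent; higher above 0, lower below 0) for 5 pairs of arrays, split by whether the probe set has 1 gene, several genes or no gene listed. In the comparison of Foxp3-null GFP+ with GFP- CD25- cells, 25.5% of probe sets with no gene listed were lower, against 9.22% of those with 1 gene.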

How the data were processed

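RNA of sorted CD4+ CD8- thymocytes was hybridised to Affymetrix mouse expression arrays, 1 array a group. Each probe set has 1 deposited value an array, taken as log2 from its range; the authors' background correction and normalization are not given in the sources used here. Array medians of these log2 values as deposited were 3.17 (GFP- CD25-) and 3.30 (Foxp3-null), but 90th percentiles 7.91 and 7.54. Values were therefore quantile normalized over the 4 arrays, with the deposited scale kept beside it, since the choice shifts the split of higher and lower genes. No significance test was possible, and 1 array a group limits the precision.

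Of 45101 probe sets, 64 controls were left out; 932 with several genes and 9160 with none listed were not named. Symbols came from the platform annotation, and 34741 of 34945 probe sets matched the RefSeq table of GRCm38.p6 (0 symbols changed). Each gene was represented by its probe set with the highest mean over 4 arrays. Named were Foxp3, the 15 largest differences each way, 10 each way with all probe sets at least 2-fold, 10 each way furthest from the other arrays, and members of 57 gene lists; 4 clone names and receptor segments were skipped. Members and lists were chosen with earlier results of these data known. Amplification in 2 rounds shortens cDNA from the 5' end, so probe sets far from the 3' end are less reliable. The calling script was tested on simulated data, which says nothing of array error, and 9 alternatives were tried. Python 3.11.15, numpy 2.4.6, pandas 2.3.3 and matplotlib 3.10.9 were used.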

Additional observations from a re-analysis of the deposited data

How the results depend on the processing

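With 1 array a group, the array limits every value and no error can be given. No paired analysis was possible because each group had 1 array. The 900 genes at least 2-fold higher on the quantile scale became 449 as deposited, 483 with the median over probe sets, 228 at 3-fold and 2012 at 1.5-fold, and the 626 lower genes 954, 392, 264 and 1180. The 1316 higher probe sets became 671 as deposited. Genes were called only at 2-fold the same way on both scales. The direction of called genes as deposited was therefore fixed beforehand and is no independent check. Of 198 named genes, 198 kept their difference within 1.5-fold and their direction as deposited, after centring and with quantiles over 2 arrays. With the median over probe sets only 85 of 172 stayed, 78 moved by more than that and the direction turned for 9, Atp5g2 (-0.0886), Cblb (0.16), Ccnd3 (0.57), Cd47 (1.42), Dusp11 (0.0482), Ncl (-0.43), Rrm1 (-0.0214), Usp9x (0.0490) and Wdr12 (0.97). A floor 1 log2 unit higher moved 45 of 198 and no floor 12. Without probe sets that can cross-hybridise 10 of 185 moved and the direction turned for Mcm5 (-0.0599) and Rpl41 (-1.20). List medians that moved were genes low in regulatory T cells (-0.99 with the median over probe sets, -0.46 without cross-hybridising probe sets), immature thymocyte genes (-0.29) and sex-linked transcripts (-0.87), both with the median over probe sets. A floor 1 log2 unit higher gave 1.04 for chemokine receptors and 1.73 for secreted mediators, which were at 1.85 after centring and 1.43 with the median over probe sets. With no floor, prostanoid genes were at 0.0446, glutathione genes at 0.0877 and dendritic cell and macrophage markers at -0.0043. The cause was not tested.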

Other observations

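Probe sets to which the platform annotation gives no gene were lower more often than those with 1 gene. Of 2812 measured probe sets without a gene, 94 (3.34%) were higher in Foxp3-null GFP+ cells and 718 (25.5%) lower on both scales, with a median difference of -0.16 (-0.32 as deposited). Of 13533 measured probe sets with 1 gene, 671 (4.96%) were higher and 1248 (9.22%) lower, with a median of 0.15 (-0.01 as deposited). Of 489 with several genes, 36 (7.36%) were higher and 21 (4.29%) lower. Lower probe sets without a gene made up 10.8% for GFP- CD25+ against GFP- CD25- cells and 14.9% for Foxp3-fusion GFP+ against GFP- CD25- cells, both read against the same GFP- CD25- array. They made up 16.1% for Foxp3-null GFP+ against GFP- CD25+ cells and 13.7% against Foxp3-fusion GFP+ cells. The gap between 3' and 5' control probe sets of Actb was 8.39 for GFP- CD25-, 9.27 for GFP- CD25+, 6.99 for Foxp3-null and 5.22 for Foxp3-fusion RNA. Its part in these shares was not tested.

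Genes that stood at least 4-fold above or below all other arrays numbered 18 and 18 for GFP- CD25-, 8 and 6 for GFP- CD25+, 2 and 27 for Foxp3-null and 41 and 5 for Foxp3-fusion RNA, of 8720 genes above the floor on at least 1 array.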
